A study of Mus musculus with 18 samples.

Results

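The genes described here carry bile acids through the ileal epithelium or answer to the bile acid receptor FXR. They are *Slc10a2*, *Fabp6*, *Slc51a*, *Slc51b*, *Fgf15*, *Nr1h4*, *Nr0b2*, *Abcc2* and *Abcc3*. Their probes were taken by gene name and by no measured difference, but the genes themselves were chosen with earlier results of these data known. The older array names *Osta* and *Ostb* were accepted for *Slc51a* and *Slc51b*. These are 9 of the 37074 gene names on the array, and all 9 were among the 21542 gene names that passed the background filter. Each gene is represented by its brightest probe, and *Slc51a*, *Nr1h4* and *Abcc3* have a dimmer probe as well.

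RNA from the ileum cells of 18 mice (C57BL6/J background) was read on 1 Agilent one-colour array per mouse. On such an array Cy3-labelled RNA copies bind to printed DNA probes of 60 bases, and the spot brightness rises with the amount of transcript. The 3 groups had 6 mice each. Pgc1α fl/fl mice received either chow or a Western diet (WD), and iPgc1α-/- mice received WD. The sample labels call this diet HFD and write the alleles as iPGC1afl/fl and iPGC1a-/-. Every mouse in all groups carried the floxed *Ppargc1a* alleles, and the iPgc1α-/- mice had in addition a Cre transgene under the villin (*Vil1*) promoter, which is active in the intestinal epithelium. WD supplied 42% of its kcal as fat and held 0.2% cholesterol, and either diet was fed for 8 weeks from the age of 8 weeks. All mice were killed after an overnight fast, and cells were released from the ileum with a chelating buffer. Mice of the iPgc1α-/- genotype on chow were not analysed here.

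Bile acids are made from cholesterol in the liver, enter the gut with bile, and are recovered in the distal ileum. There the apical transporter ASBT (*Slc10a2*) takes them up, the cytosolic protein IBABP (*Fabp6*) binds them, and the heteromeric exporter OSTα-OSTβ (*Slc51a* and *Slc51b*) releases them towards portal blood. Within the cell they activate FXR (*Nr1h4*), a nuclear receptor that acts with RXR and induces, among others, the hormone gene *Fgf15*, the repressor gene *Nr0b2* (SHP), *Fabp6* and both OST genes. The FGF15 protein travels to the liver and lowers *Cyp7a1*, the gene of the rate-limiting enzyme of bile acid synthesis.

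The RefSeq promoter table (GRCm38.p6) held entries for 7 of the 9 genes, all but *Fgf15* and *Abcc3*. The 250 bases before each annotated start were searched for the nuclear receptor hexamer AGGTCA, on both strands (TGACCT on the other), and for the inverted repeat AGGTCANTGACCT, to which FXR with RXR is known to bind, with up to 2 mismatches outside the N. This repeat reads the same on either strand, and an exact repeat would also contain both hexamers. Of the 32851 promoter entries in the table, 14.0% held the hexamer, 0.959% the repeat with up to 2 mismatches and 0.00609% the exact repeat. Among the 7 genes, the repeat was found only for *Fabp6*, at 222 and at 142 bases before the start, with 2 mismatches at either place. The hexamer was found once each for *Slc51a* (58 bases before the start), *Slc51b* (203), *Nr1h4* (214) and *Abcc2* (49). No match lay in these windows of *Slc10a2* and *Nr0b2*, which says only that the letters are not in them. The promoters of *Fabp6*, with its repeats, of both OST subunits, of which only *Slc51b* was called for WD, and of *Abcc2*, which rose on WD, are printed here from 5′ to 3′, with the matches in capitals. They lie at chr11:43601563-43601812 (minus strand), chr16:32487880-32488129 (minus strand), chr9:65422774-65423023 (minus strand) and chr19:43782058-43782307 (plus strand).
Fabp6: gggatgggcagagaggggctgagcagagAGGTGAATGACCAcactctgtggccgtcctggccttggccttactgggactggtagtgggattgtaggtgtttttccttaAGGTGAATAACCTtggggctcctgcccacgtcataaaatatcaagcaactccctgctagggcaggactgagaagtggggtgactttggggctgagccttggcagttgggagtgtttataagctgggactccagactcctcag
Slc51a: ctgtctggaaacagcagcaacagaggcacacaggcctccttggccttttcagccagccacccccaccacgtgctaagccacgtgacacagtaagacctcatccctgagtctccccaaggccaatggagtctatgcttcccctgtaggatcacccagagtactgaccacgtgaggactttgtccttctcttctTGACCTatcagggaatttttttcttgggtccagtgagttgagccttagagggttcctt
Slc51b: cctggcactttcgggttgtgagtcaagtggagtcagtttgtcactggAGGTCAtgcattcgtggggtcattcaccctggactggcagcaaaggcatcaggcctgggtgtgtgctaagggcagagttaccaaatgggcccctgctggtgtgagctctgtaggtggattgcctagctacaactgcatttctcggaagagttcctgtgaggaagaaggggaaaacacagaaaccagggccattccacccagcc
Abcc2: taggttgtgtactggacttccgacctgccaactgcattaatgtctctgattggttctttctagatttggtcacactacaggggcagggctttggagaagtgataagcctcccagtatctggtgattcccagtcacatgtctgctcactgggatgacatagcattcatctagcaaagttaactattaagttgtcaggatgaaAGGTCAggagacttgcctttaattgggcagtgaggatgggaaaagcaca

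On each array 56.3% to 62.3% of spots other than controls exceeded background clearly, by the scanner software's flag, and no spot was saturated. The median spot read 39 to 61 intensity units where the local background read 17 to 23. Each of the 3 slides held 2 arrays of every group. Signals are given below as log2 normalised signal, which compares mice for the same probe but not probes with each other. Over all genes the standard error of the fold changes had a median of 0.11 on the log2 scale, and the number of arrays limits the precision. A call required both a limma p of at most 0.05 after Benjamini-Hochberg adjustment and a fold change above 1.5. *Ppargc1a*, the gene targeted in iPgc1α-/- mice, served as a check of the labels. With n = 6 and SD in each case, its signal was 10.94 ± 0.46 in Pgc1α fl/fl mice fed chow and 11.37 ± 0.07 in those fed WD. Arrays labelled iPgc1α-/- had 11.67 ± 0.26 and were thus not lower, and whether its probe lies in the deleted exons was not determined. The study reported that RT-qPCR of the intestinal tracts showed the deletion in iPgc1α-/- mice, a measurement that was not used here. Directions by genotype therefore refer to the labels.

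The first comparison asked how 8 weeks of WD changed these genes in Pgc1α fl/fl mice. The hormone gene *Fgf15* rose 5.54-fold, and *Nr0b2* and *Abcc2* were also higher on WD. The uptake transporter gene *Slc10a2* fell 2.11-fold, the exporter subunit gene *Slc51b* 1.92-fold and the receptor gene *Nr1h4* 1.72-fold. *Fabp6* and *Slc51a* did not pass the test, and *Abcc3* passed the adjusted p but not the fold change. In all, 6 of the 9 genes were called (3 higher, 3 lower), while 8.43% of all 21542 genes were called (3.21% higher, 5.22% lower). At the adjusted p alone 7 of the 9 passed, against 24.6% of all genes. The arrays on WD and on chow did not overlap for 4 of the 9 genes, *Slc51b*, *Nr0b2*, *Abcc2* and *Abcc3*, and for 10.4% of all genes. *Nr0b2* is in these counts although it passed the background filter only through WD, where it was higher. Because the genes were chosen with earlier results of these data known, the counts are a description and not a test. The median log2 fold change of the 9 genes was -0.11, and that of all genes 0.00.

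**Figure D1:**
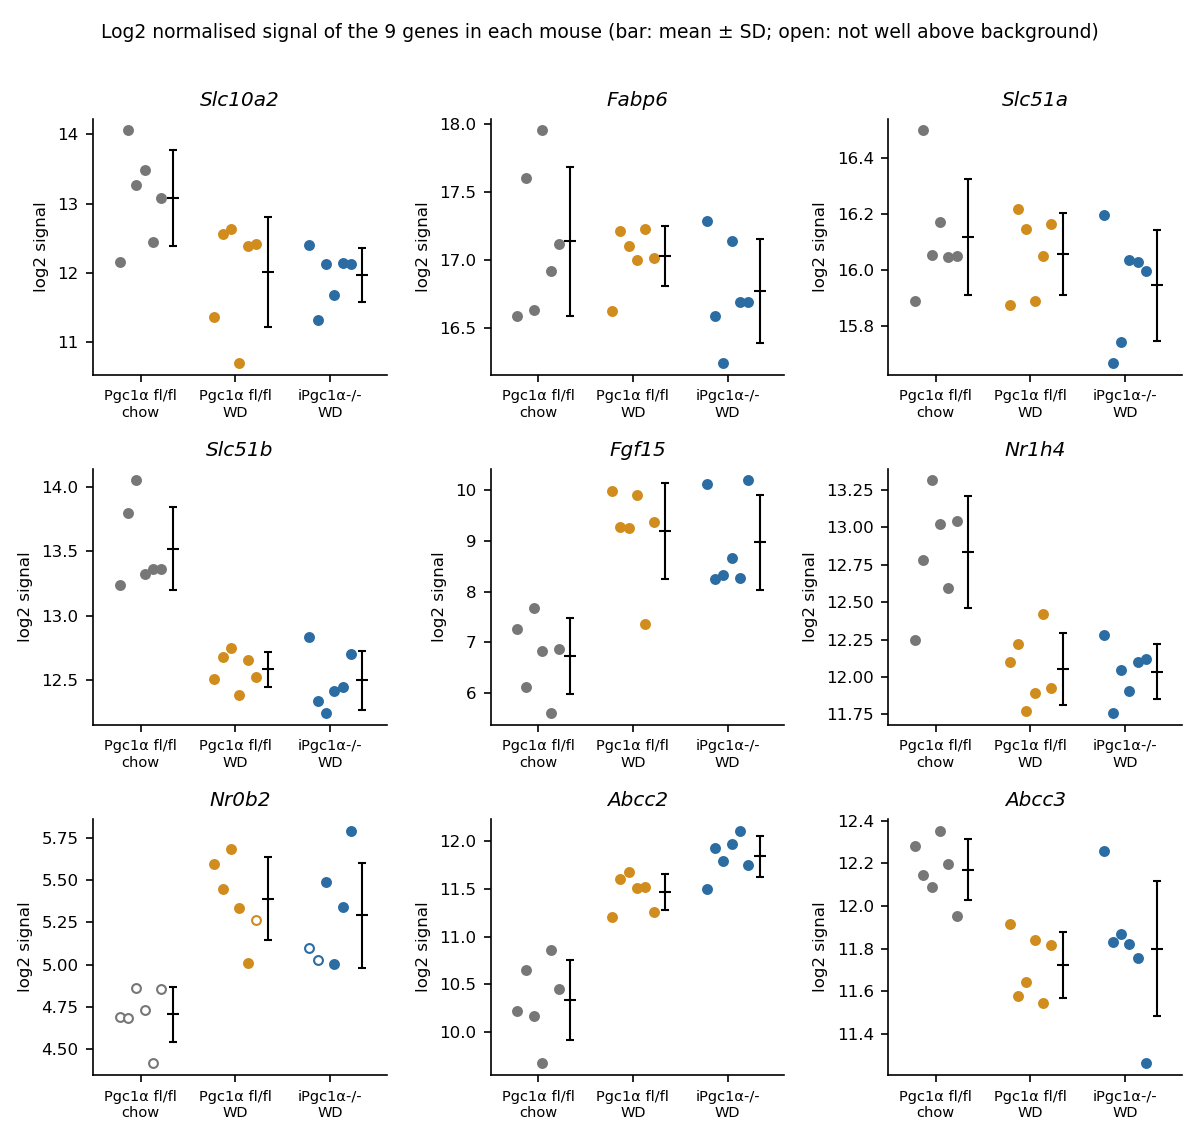
Log2 normalised signal (vertical axes, which do not start at 0) of the 9 genes at their brightest probe in each of the 18 mice, by group (horizontal axes). Points are mice, open points lie on arrays where the probe was not well above background, and bars give the mean ± SD of 6 mice. *Fgf15* lies between 5.60 and 7.68 on chow and between 7.37 and 9.99 in WD-fed Pgc1α fl/fl mice.

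*Slc10a2* encodes ASBT, the sodium-dependent transporter that brings conjugated bile acids across the apical membrane. Its probe lies on chromosome 8 of mm9, from 5086145 to 5086204. In the 6 mice on chow the log2 signals were 12.15, 14.06, 13.27, 13.48, 12.44 and 13.08. In the 6 WD-fed Pgc1α fl/fl mice they were 11.36, 12.56, 12.63, 10.69, 12.38 and 12.41. The groups overlapped, since the 2 lowest mice on chow lay below the highest on WD. The log2 fold change was -1.07 (standard error 0.33, 95% confidence interval -1.76 to -0.39, adjusted p = 0.0226 from limma). This call sits near the threshold. It was lost with the background-subtracted signal after scaling to the 75th percentile (-0.93, adjusted p = 0.0694), with array weights (-0.88, adjusted p = 0.0545), and without chow replicate 2 (-0.88, adjusted p = 0.0532), chow replicate 4 (-0.99, adjusted p = 0.0544) or WD replicate 4 (-0.81, adjusted p = 0.0504), in a range of adjusted p from 0.00912 to 0.0694 over all alternatives and left-out arrays. Within slides 1, 2 and 3, the mean of the 2 arrays on WD minus that of the 2 on chow was -0.24, -0.77 and -2.22 on the log2 scale.

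*Fabp6* encodes the ileal bile acid binding protein, which carries bile acids through the cytosol and is a classical marker of ileal enterocytes. Its probe lies on chromosome 11, from 43410973 to 43411032. The lowest, median and highest log2 signals were 16.59, 17.02 and 17.95 on chow and 16.63, 17.06 and 17.23 on WD. The ranges overlapped almost wholly, and the spread between mice was larger on chow (SD 0.55) than on WD (SD 0.22). The difference was -0.11 (standard error 0.21, 95% confidence interval -0.54 to 0.33, adjusted p = 0.757), so that a change of 1.5-fold in either direction lay outside the interval. Within slides it ran from -0.77 to 0.61. Among the printed promoters, the one with the inverted repeats belongs to a gene whose signal did not differ detectably between diets. Whether FXR binds these repeats, or whether they bear on the response to diet, was not tested.

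The OST genes encode the 2 subunits of the basolateral bile acid exporter, and *Slc51b* but not *Slc51a* was called lower on WD. The brighter *Slc51a* probe, on chromosome 16 from 32475636 to 32475695, had lowest, median and highest log2 signals of 15.89, 16.05 and 16.50 on chow and of 15.87, 16.10 and 16.22 on WD. These ranges overlapped. Its log2 fold change was -0.06 (standard error 0.11, 95% confidence interval -0.28 to 0.16, adjusted p = 0.72), and that of the dimmer probe was also -0.06 (adjusted p = 0.803). The *Slc51b* probe, on chromosome 9 from 65260705 to 65260764, gave 13.24, 13.80, 14.05, 13.32, 13.36 and 13.36 on chow. It gave 12.51, 12.67, 12.75, 12.38, 12.65 and 12.52 on WD. Every mouse on WD lay below every mouse on chow. The log2 fold change was -0.94 (standard error 0.13, 95% confidence interval -1.21 to -0.67, adjusted p = 3.08e-05), and it was -0.98, -0.73 and -1.11 within the 3 slides. The difference between the 2 subunits' responses was not itself tested, but their confidence intervals did not meet.

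*Nr1h4* encodes FXR. Its brighter probe, on chromosome 10 from 88917222 to 88917281, gave 12.25, 12.78, 13.31, 13.02, 12.60 and 13.04 on chow and 12.10, 12.22, 11.77, 11.89, 12.42 and 11.92 on WD. The groups met only where the lowest mouse on chow (12.25) lay below the highest on WD (12.42). The log2 fold change was -0.78 (standard error 0.15, adjusted p = 0.000693), and within slides it was between -0.995 and -0.461. The dimmer probe, from 88960160 to 88960219, was lower as well but was not called (-0.44, standard error 0.18, adjusted p = 0.0763).

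*Fgf15* encodes the enterokine that FXR induces in ileal enterocytes. Its probe lies on chromosome 7 from 152086371 to 152086430. The 6 mice on chow gave log2 signals of 7.26, 6.12, 7.68, 6.83, 5.60 and 6.86. The 6 WD-fed Pgc1α fl/fl mice gave 9.99, 9.27, 9.26, 9.91, 7.37 and 9.37. Of the mice on WD, 5 lay above every mouse on chow, and replicate 5, at 7.37, lay below the highest mouse on chow. The log2 fold change was 2.47 (standard error 0.44, 95% confidence interval 1.54 to 3.40, adjusted p = 0.00042). It was 2.84 without WD replicate 5 (adjusted p = 3.53e-05). Within slides 1, 2 and 3 it was 0.85, 3.40 and 3.16, and WD replicate 5 lay on slide 1.

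*Nr0b2* encodes SHP, a nuclear receptor without a DNA-binding domain that represses other receptors. Its probe, on chromosome 4 from 133109694 to 133109753, was close to background. The probe passed as well above background on 0 of 6 chow arrays, on 5 of 6 of WD-fed Pgc1α fl/fl mice and on 4 of 6 of the arrays labelled iPgc1α-/-. The gene thus passed the filter only through WD, where it was higher, and without it 5 of the other 8 genes were called for diet. The log2 signals were 4.69, 4.68, 4.86, 4.73, 4.42 and 4.86 on chow and 5.60, 5.45, 5.69, 5.34, 5.01 and 5.26 on WD, without overlap. The fitted log2 fold change was 0.68 (standard error 0.13, adjusted p = 0.000887). Since this probe was not well above background on chow, a floor was set at the lowest signal of any probe well above background on each array. Under the main processing the mean on WD was 1.53-fold above the chow level raised to this floor. WD replicate 6, which is part of that mean, was itself not well above background at 5.26. The floors of the chow arrays were lower, at 4.56 to 4.88. The limit for this probe can thus lie above them, and 1.53-fold is not a lower limit of the difference. Over the processing alternatives the value ran from 0.31 with normexp and quantile normalisation, where the fold change threshold was no longer passed, to 2.19 with 75th percentile scaling of the background-subtracted signal.

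*Abcc2* and *Abcc3* encode the multidrug resistance-associated proteins MRP2, an apical exporter of conjugates, and MRP3, a basolateral exporter that can carry bile acids. The *Abcc2* probe, on chromosome 19 from 43912079 to 43912138, gave 10.21, 10.64, 10.17, 9.67, 10.86 and 10.45 on chow and 11.21, 11.61, 11.68, 11.51, 11.52 and 11.26 on WD. All mice on WD lay above all on chow, by a mean log2 difference of 1.13 (adjusted p = 2.5e-05, standard error 0.15), with within-slide values between 0.79 and 1.37. The brighter *Abcc3* probe, on chromosome 11 from 94204612 to 94204671, had lowest, median and highest log2 signals of 11.95, 12.17 and 12.35 on chow and of 11.55, 11.73 and 11.92 on WD. These groups did not overlap either. The difference was -0.45 (standard error 0.12, adjusted p = 0.011), a 1.36-fold difference that stayed under the fold change threshold, and the dimmer probe gave -0.49 (adjusted p = 0.0648).

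**Figure D2:**
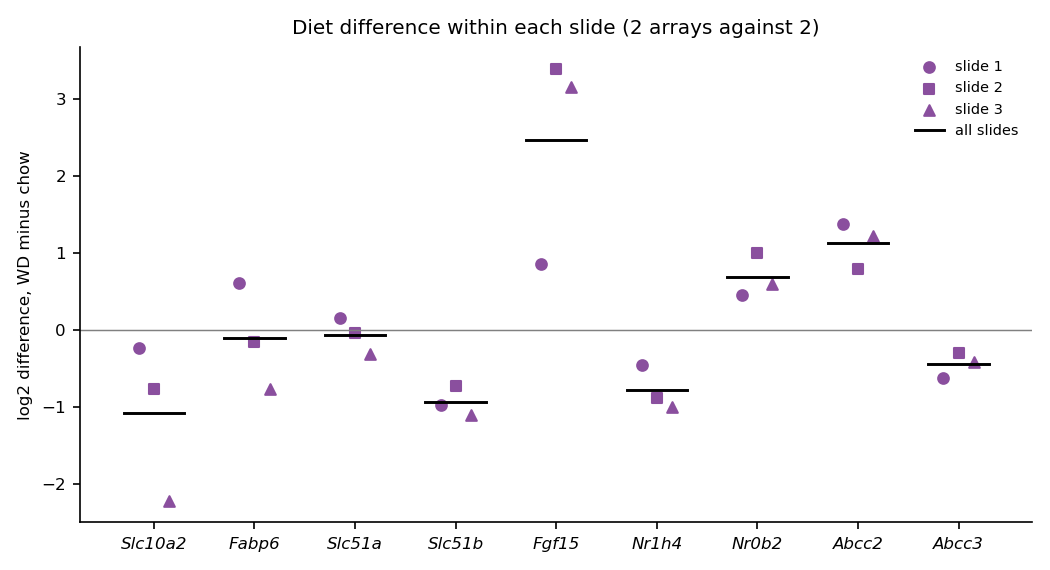
Difference in log2 normalised signal between Pgc1α fl/fl mice fed WD or chow (vertical axis) for the 9 genes (horizontal axis), within each of the 3 slides (symbols, the mean of 2 arrays minus the mean of 2) and over all slides (black lines). All 3 slides give the sign of the fitted value for 7 genes, and *Fabp6* and *Slc51a* have 1 slide on the other side of 0.

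The second comparison concerned the genotype label among mice fed WD, and its Pgc1α fl/fl arrays are the same WD arrays as in the first. Of the 9 genes 0 were called in limma, against 0.135% of all genes, and 1 of them, *Abcc2*, had an unadjusted p under 0.05. Over all 21542 genes, 2004 had an unadjusted p under 0.05. The arrays of the 2 genotypes overlapped for all 9 genes, while they did not for 0.961% of all genes. The median log2 fold change of the 9 genes was -0.09, against 0.01 over all genes. None was called under any alternative or with any array left out.

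For the transport genes, the mean log2 signal in the arrays labelled iPgc1α-/- was 11.96 ± 0.39 for *Slc10a2*, compared with 12.01 ± 0.79 in WD-fed Pgc1α fl/fl mice (SD, n = 6 each). The confidence interval of this difference, from -0.73 to 0.64, did not exclude a change above 1.5-fold. For *Fabp6* the means were 16.77 ± 0.38 and 17.03 ± 0.22, with an interval from -0.69 to 0.18. For *Slc51a* they were 15.94 ± 0.20 and 16.06 ± 0.15 (interval -0.33 to 0.11). For *Slc51b* they were 12.49 ± 0.23 and 12.58 ± 0.13 (interval -0.36 to 0.19). The intervals of *Slc51a* and *Slc51b* thus stayed inside a 1.5-fold change.

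The 6 arrays labelled iPgc1α-/- gave *Fgf15* signals of 10.12, 8.24, 8.32, 8.66, 8.27 and 10.19, all above the highest mouse on chow (7.68). Of these, 2 lay above every WD-fed Pgc1α fl/fl mouse and 4 lay between the lowest and the other 5. The difference by genotype label was -0.23 (standard error 0.44, adjusted p = 0.895), and its interval from -1.15 to 0.70 left a change of more than 1.5-fold possible in both directions. It was -0.59 without WD replicate 5 of Pgc1α fl/fl (adjusted p = 0.576), and from -0.47 to -0.07 without any of the other 11 arrays of this comparison. *Nr1h4* was at 12.04 ± 0.18 and 12.05 ± 0.24, a difference of -0.02 (interval -0.33 to 0.29). *Nr0b2* was at 5.29 ± 0.31 and 5.39 ± 0.24, a difference of -0.10 (interval -0.38 to 0.18). *Abcc3* was at 11.80 ± 0.32 and 11.72 ± 0.15 (interval -0.18 to 0.33).

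*Abcc2* was the 1 gene of the 9 with an unadjusted p under 0.05 in limma, which is near the share over all genes (2004 of 21542). The 6 arrays labelled iPgc1α-/- gave 11.50, 11.92, 11.79, 11.97, 12.11 and 11.75, and 5 of them lay above the highest WD-fed Pgc1α fl/fl mouse (11.68). The log2 fold change was 0.38 (standard error 0.15, interval 0.06 to 0.70, unadjusted p = 0.0234), which did not pass the adjustment (adjusted p = 0.463 in limma). It was between 0.26 and 0.46 within the 3 slides.

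**Figure D3:**
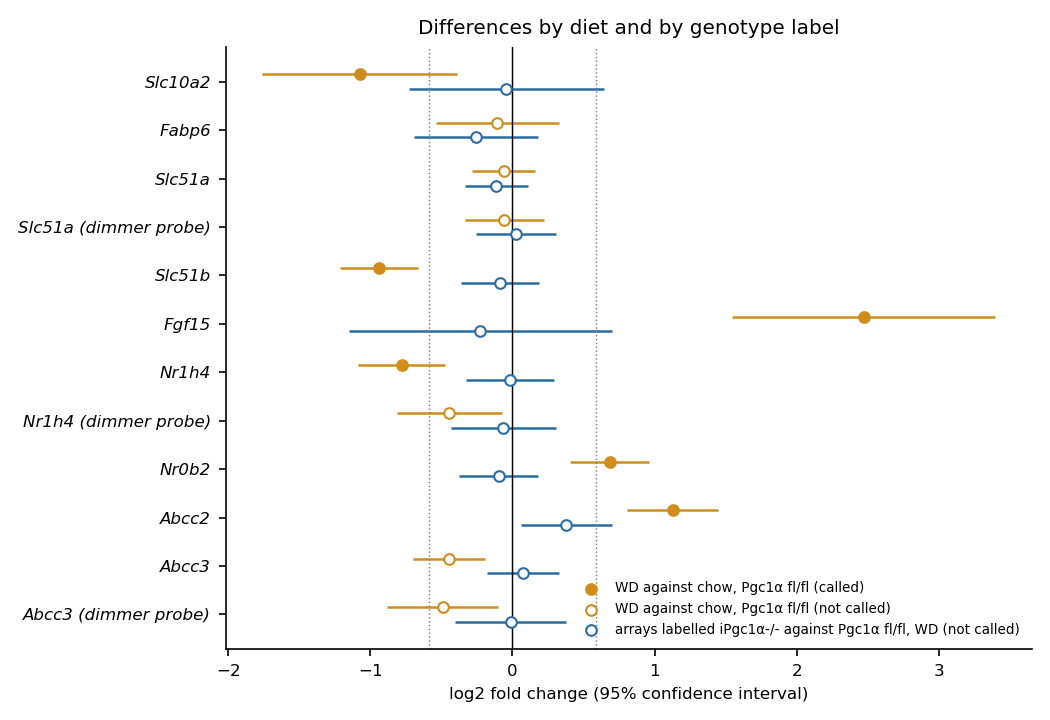
Log2 fold change (horizontal axis) with its 95% confidence interval for every probe of the 9 genes (vertical axis), by diet in Pgc1α fl/fl mice (WD against chow, orange) and by genotype label on WD (iPgc1α-/- against Pgc1α fl/fl, blue). Filled points were called, and dotted lines mark a 1.5-fold change. The diet values run from -1.07 to 2.47, and no genotype value was called.

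A further 75 genes of bile acid signalling, transport and synthesis were read from 6 lists, also chosen with earlier results known. Of these genes 59 passed the filter. WD called 10 of these 59 (6 higher, 4 lower), against 8.43% of all genes, and genotype called 0. The median log2 fold change of the 59 by diet was 0.10. Scaling the median signal to the 75th percentile gave 6 higher and 2 lower, and the background-subtracted signal with the same scaling gave 9 higher and 1 lower.

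Among 17 tested nuclear receptors, bile acid receptors and partner factors, 2 rose on WD and 0 fell. Of all genes, 3.21% were called higher and 5.22% lower. *Ppara*, the receptor for fatty acids, went from 11.38 ± 0.18 on chow to 13.00 ± 0.19 on WD without overlap, which is 1.63 on the log2 scale (adjusted p = 8.04e-09). *Nr1h3* (LXRα, an oxysterol receptor) went from 12.13 ± 0.17 to 12.80 ± 0.06, a log2 fold change of 0.67 (adjusted p = 3.47e-06). The FXR partner gene *Rxra* was at 14.06 ± 0.06 and 14.16 ± 0.05 (adjusted p = 0.334). *Nr5a2* (LRH-1, which acts with SHP) had a difference of -0.11 (adjusted p = 0.46) and *Hnf4a* of -0.13 (adjusted p = 0.408). *Nr1i2* (PXR) had 0.38 (adjusted p = 0.0541), and the membrane bile acid receptor gene *Gpbar1* had 0.04 (adjusted p = 0.823).

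Among 9 other tested transporters, 3 rose and 1 fell, against 3.21% and 5.22% of all genes. *Abcc6* had a log2 fold change of 1.13 (adjusted p = 7.3e-06), the phospholipid floppase gene *Abcb4* of 0.79 (adjusted p = 0.0019) and the drug exporter gene *Abcb1a* of 0.74 (adjusted p = 0.00331). *Abcg2*, an apical exporter gene, fell by 0.64 on the log2 scale (adjusted p = 0.000104), a call lost on the fold change with the background-subtracted signal, with scaling to the 75th percentile and without chow replicate 2 (-0.56). The canalicular bile salt pump gene *Abcb11* was below the filter, with 2 of 6 arrays on chow and 0 of 12 on WD well above background.

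Of 10 tested genes of bile acid synthesis, conjugation and detoxification, 0 rose and 1 fell, against 3.21% and 5.22% of all genes. This was *Cyp3a11*, a monooxygenase gene, at a difference of -1.16 in log2 signal (adjusted p = 0.0378, standard error 0.39) in overlapping groups. Its call was lost in 7 of 15 processing alternatives and without chow replicate 2, 3, 5 or 6 or WD replicate 1 or 6 (adjusted p from 0.0514 to 0.0965 without these). *Cyp27a1*, which starts the alternative pathway of synthesis, was at 6.82 ± 0.72 on chow and 7.27 ± 0.38 on WD (adjusted p = 0.26), and *Cyp7a1* was well above background on 0 of 18 arrays. Of 4 tested FGF receptor genes 0 were called. *Fgfr4*, the hepatic receptor of FGF15, was at 8.85 ± 0.34 and 9.16 ± 0.26 (adjusted p = 0.173), and its co-receptor gene *Klb* was well above background on no array.

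Of 8 tested genes listed as intestinal FXR targets, 1 rose and 2 fell, against 3.21% and 5.22% of all genes. *Apoc2*, an activator of lipoprotein lipase, rose by 1.21 (adjusted p = 0.00011). *Nos2*, the inducible nitric oxide synthase gene, went from 12.75 ± 0.70 to 10.28 ± 0.64 without overlap, with a log2 fold change of -2.47 (adjusted p = 5.89e-05). *Pparg*, a fatty acid receptor gene, fell by 0.64 (adjusted p = 0.00819), and missed the fold change without chow replicate 3 (-0.50) or WD replicate 2 (-0.55), with array weights and with the background-subtracted signal. Of 11 tested co-regulator genes 0 were called. In the arrays labelled iPgc1α-/-, the differences of these 10 diet-called genes from WD-fed Pgc1α fl/fl mice ran from 0.07 for *Abcg2* to 0.47 for *Abcc6*, and none was called (adjusted p from 0.269 to 0.867).

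**Figure D4:**
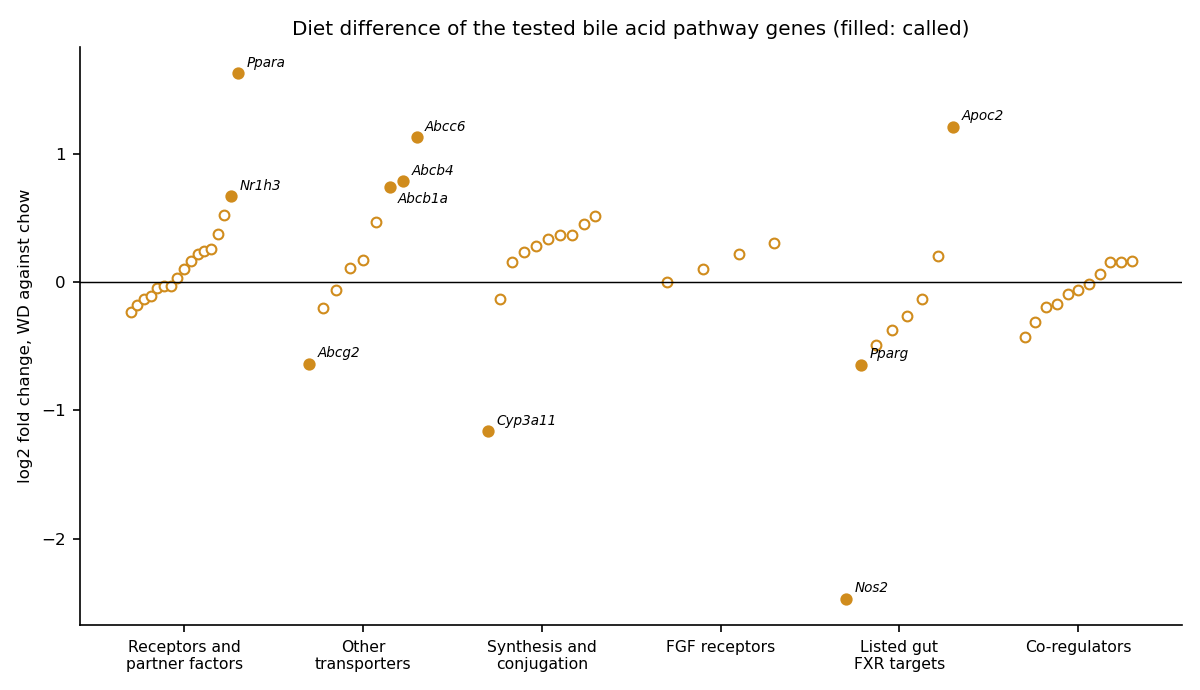
Log2 fold change by diet (WD over chow, Pgc1α fl/fl, vertical axis) of the 59 tested genes of bile acid signalling, transport and synthesis, by list (horizontal axis). Filled, named points were called (10 genes), open points were not. *Ppara* is the highest at 1.63 and *Nos2* the lowest at -2.47.

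Markers of some cell types were called for diet, while 8.43% of all genes were called (3.21% higher, 5.22% lower). Fewer cells of a type and less RNA per cell cannot be told apart in these bulk samples. The summed signals below weigh bright probes most, so a sum can move against the median marker of its list. Of 7 enterocyte markers 1 rose (*Alpi*) and 0 fell, with a summed normalised signal (linear scale) of 575335 to 721499 on chow, 630459 to 749231 for Pgc1α fl/fl on WD and 690199 to 813102 for iPgc1α-/-. All 3 markers of the distal small intestine (*Cubn*, *Amn*, *Mep1a*) passed the adjusted p and were higher on WD, of which 1 was called, and their summed signal was 41787 to 70523 on chow, 82616 to 109698 on WD and 72569 to 109662 in the arrays labelled iPgc1α-/-. Of 6 tested proximal markers 2 rose and 2 fell, with a median log2 fold change by diet of -0.03 and *Pdx1* below the filter. The summed signal was 34953 to 130684 on chow, 167934 to 212291 for Pgc1α fl/fl on WD and 176915 to 261384 for iPgc1α-/-. Of 3 tested colon markers 0 were called, with *Hoxb13* and *Slc37a2* well above background on no array. Of 6 villus tip markers 1 rose and 3 fell, with a median log2 fold change by diet of -0.54. Their summed signal was nevertheless 111400 to 206964, 194384 to 245954 and 220952 to 286931 in the same order. Of 5 stem and crypt markers 0 were called.

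Goblet cell markers fell in 3 of 5 (summed signal 273272 to 358289 on chow, 135660 to 299580 on WD and 177819 to 272174 in the arrays labelled iPgc1α-/-). Paneth markers fell in 2 of 5, enteroendocrine in 1 of 5 and tuft markers in 1 of the 2 tested. The Paneth list as a whole did not fall, with a median log2 fold change by diet of 0.00. Its summed signal was 363618 to 492675 on chow, 396431 to 555731 on WD and 405792 to 508203 in the arrays labelled iPgc1α-/-. Of all genes, 5.22% were called lower and 3.21% higher. T cell markers fell in 4 of 5 (3812 to 6561 on chow, 2388 to 3599 on WD, 3470 to 4186 in the arrays labelled iPgc1α-/-). B cell markers fell in 3 of 4 (514 to 3166, 156 to 994 and 283 to 706 in the same order). Both tested plasma cell markers fell (528 to 1412, 90.6 to 350 and 136 to 321). Of 3 tested macrophage markers 1 fell, of 4 stromal and muscle markers 0 were called, and of 4 hepatocyte markers 1 rose, with *Alb* well above background on 1 of 18 arrays. The part of these cell types in the differences of the bile acid genes was not tested.

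The 9 genes were also compared between mice of the same group. After removal of the group means, Pearson and Spearman correlations of all 36 pairs were computed over the 18 mice, with 100000 permutations of mice within groups (two-sided) and Benjamini-Hochberg adjustment over the pairs. The arrays share their normalisation, so that a common array effect is part of these values. Both coefficients passed an adjusted p of 0.05 for 2 pairs, and 7 pairs had an unadjusted Pearson p at or under 0.05.

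*Slc10a2* and *Slc51a* varied together, with r = 0.78 (permutation p = 0.00025, adjusted 0.009) and rho = 0.82 (permutation p = 3e-05, adjusted 0.00108). Without the 2 mice farthest from the median of *Slc10a2* r was 0.76. Within groups r was 0.89 on chow, 0.90 in WD-fed Pgc1α fl/fl mice and 0.64 in the arrays labelled iPgc1α-/-. *Fabp6* and *Slc51a* had r = 0.72 (permutation p = 0.00195, adjusted 0.0351) and rho = 0.78 (permutation p = 0.00011, adjusted 0.00198), and r = 0.78 without the 2 mice farthest from the median of *Fabp6*. Within groups r was 0.70, 0.70 and 0.81 in the same order. With the slide means removed as well, *Slc10a2* with *Slc51b* and *Slc51a* with *Slc51b* also passed. Under 75th percentile scaling of the median signal, *Fabp6* and *Slc51a* no longer passed in rho (adjusted permutation p = 0.0536). In that setting *Slc10a2* with *Fabp6* (r = 0.65, rho = 0.73) and *Slc51a* with *Slc51b* (r = 0.69, rho = 0.67) passed in both coefficients.

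The correlations of *Fgf15* did not pass the adjustment for both coefficients. *Fgf15* and *Nr0b2* had r = 0.56 (permutation p = 0.02998, adjusted 0.18) and rho = 0.47 (adjusted 0.344), and r fell to 0.33 without the 2 mice farthest from the median of *Fgf15*. *Fgf15* and *Abcc2* had r = -0.54 (permutation p = 0.01624, adjusted 0.146) and rho = -0.67 (adjusted 0.0323). With the transport genes *Slc10a2*, *Fabp6* and *Slc51a*, *Fgf15* had r between -0.13 and 0.02, and with *Slc51b* it had r = 0.31. Within groups the first 3 values lay between -0.43 and -0.05 on chow and between -0.66 and -0.30 in WD-fed Pgc1α fl/fl mice, among them the low replicate 5. In the arrays labelled iPgc1α-/- they lay between 0.51 and 0.64. The value with *Slc51b* was 0.27, -0.51 and 0.93 in the same order of groups. The differences between groups were not tested.

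**Figure D5:**
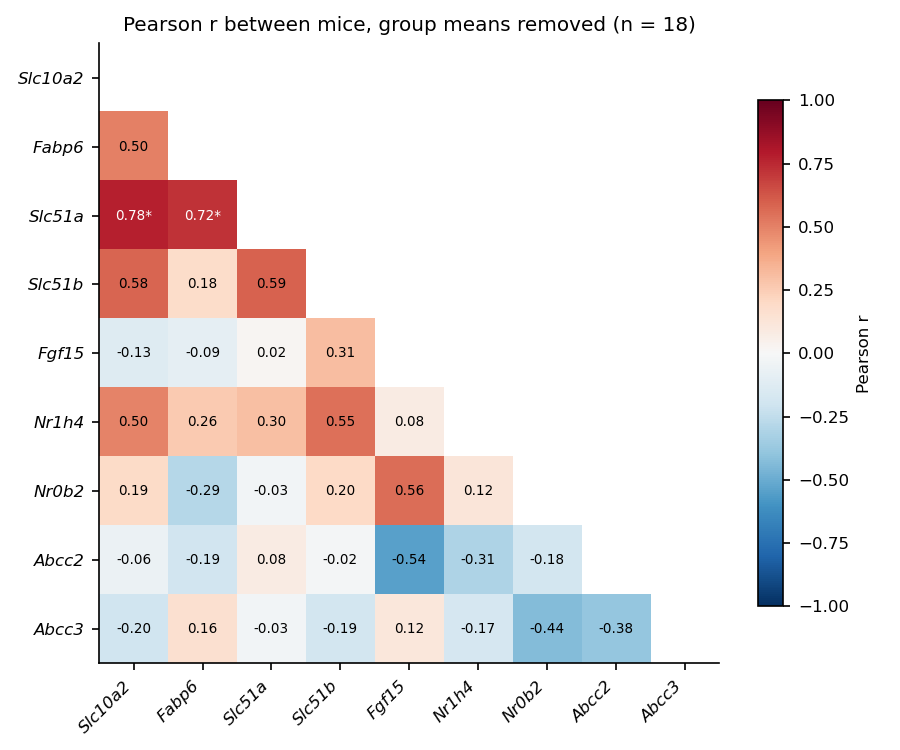
Pearson correlation r (colour and printed value) between the 9 genes over the 18 mice after removal of group means. Both axes list the genes, and an asterisk marks pairs in which the Pearson and the Spearman coefficient passed an adjusted p of 0.05. *Slc10a2* with *Slc51a* (0.78) and *Fabp6* with *Slc51a* (0.72) are marked.

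Among 14001 named genes, those most like 4 of the members between mice were found by Pearson r over the same 18 arrays with group means removed, as a description without a test. For *Slc10a2* they were *Bmp8b* (r = 0.82), *Nostrin* (0.81) and *Ssfa2* (0.80). For *Fabp6* they were *Suox* (0.87), *Slc25a48* (0.87) and *Rbm15b* (0.85). Of these, *Suox* was called lower on WD (log2 fold change -0.99, adjusted p = 0.00581), while *Slc25a48* was not called at -1.12 (adjusted p = 0.0844). For *Fgf15* they were *P3h4* (0.81), *Plaur* (0.79) and *Smpd3* (0.78), which were all called for diet, with log2 fold changes of 1.45, -0.68 and 0.65. For *Nr0b2*, near background, they were *Hmx1* (0.83), *Tmem210* (0.76) and *Olfr124* (0.75), none of them called.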

How the data were processed

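Ileum cells of 18 mice were measured on Agilent SurePrint G3 Mouse GE v2 arrays, 6 per group, grouped by their sample labels. The authors deposited spot intensity values of Agilent Feature Extraction 10.10.1.1 without normalisation between arrays, and a table of log2 values for 33095 probes, which they had filtered, batch-corrected and normalised with qsmooth. Its columns (medians of 7.44) had r of at least 0.9997 with the log2 median signal, so its scale is log2, its direction is unchanged and its arrays are centred alike. The batches corrected for (washing bath, labelling serial) are not named in the labels and were not corrected here.

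Control spots were dropped, as were outlier spots, of which an array had 46 to 153, and remaining spots of a probe were averaged. A probe was tested if some group had it well above background on 5 or more of its 6 arrays. Log2 median signals were then put through a reimplementation of qsmooth (window 0.05, R 4.3.3). A joint limma 3.58.1 model of the groups was fitted, and Benjamini-Hochberg adjustment ran over 32726 probes. The 9 genes had values on all arrays. Adjusted p-values in the text are from limma unless called permutation. Replicates are separate mice. Correlations used numpy and scipy, and figures matplotlib. The fit was tested on simulated data.

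The 9 genes and all lists were chosen with earlier results of these data known. The text names all 9 genes, every gene of the 6 pathway lists called in a comparison, *Rxra*, *Nr5a2*, *Hnf4a*, *Nr1i2*, *Gpbar1*, *Cyp7a1*, *Cyp27a1*, *Abcb11*, *Fgfr4*, *Klb*, *Ppargc1a*, and the 3 genes most like each of 4 members. Cell type markers are given by counts, and the few named were chosen after their values were seen. Coordinates of probes are on mm9 as the array files give them, and exons were not determined. Promoters are RefSeq's on GRCm38.p6.

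Alternatives were scaling to the 75th percentile of the background-subtracted or the median signal, normexp with an offset of 50, quantile normalisation, the deposited log2 table, filters on dim probes that were absent or stricter, blocks for slide or replicate number, a fit of 2 groups at a time, weighted arrays, a variance that was trended and robust, changed thresholds, the mean over a gene's probes, and omission of each array.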

Additional observations from a re-analysis of the deposited data

Results flagged for a closer look

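In groups of 6 arrays, the distance of the lowest or highest array to its neighbour was set against Dixon's 95% critical value for 27 genes in 3 groups (81 sets). Of these, 5 exceeded it, and chance gives about 4.05. *Fgf15* in Pgc1α fl/fl WD replicate 5 was at 7.37, below the other 5 mice at 9.26 to 9.99. In Pgc1α fl/fl WD replicate 4, *Nr1h3* was at 12.68 (others 12.80 to 12.85) and *Apoc2* at 16.35 (others 16.68 to 16.75). In the array labelled iPgc1α-/- replicate 2, *Abcb4* was at 12.34 (others 12.74 to 12.93) and *Abcb1a* at 13.09 (others 13.70 to 13.90).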

How the results depend on the processing

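WD called 5 to 7 of the 9 genes under the 15 processing alternatives and 5 to 6 with an array left out, and genotype 0 throughout. No called difference changed sign. Over the same alternatives the log2 fold change of *Fgf15* ran from 2.16 to 2.87, of *Slc51b* from -0.94 to -0.83, of *Nr1h4* from -0.78 to -0.61 and of *Abcc2* from 1.03 to 1.24. Without the fold change threshold, WD called 5297 of all genes (main 1815) and 19 of the further pathway genes (main 10), with *Abcc3* among the called members, and genotype called 47 of all genes (main 29). At an adjusted p of 0.01 genotype called 14. Scaling of median signals by their 75th percentile left 8 pathway genes called (6 higher, 2 lower), and the background-subtracted signal with that scaling 10 (9 higher, 1 lower). With an array left out, WD called 1631 to 1995 of all genes and 8 to 12 pathway genes, and genotype 20 to 41 and 0. Member pairs that passed were 2, 3 with the 75th percentile and 4 with slide means removed. The strict filter removed *Nr0b2*. The main fit did not pair mice by replicate number, and the labels name no such pairing. Deviations of same-numbered arrays had r from -0.19 to 0.33, which does not settle whether they were paired. With a replicate block WD called 6 members, 10 pathway genes and 1828 of all genes. Signal near background limits the fold change of *Nr0b2*.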
